A study of Homo sapiens with 12 samples.

Results

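The mitochondrial ribosome carries its own set of proteins, all encoded in the nucleus and imported, and their genes were recognised here by symbol, MRPL for the large subunit and MRPS for the small subunit, followed by a number and an optional letter from A to C. The rule found 76 genes among the 14438 of the table, 48 of the large and 28 of the small subunit, on 21 chromosomes. RNA was sequenced from HEK293T cells, a transformed human embryonic kidney line, in 4 lines with 3 biological replicates each, 12 libraries in all. Each line carried a lentiviral EZH2, the catalytic subunit of the Polycomb repressive complex that methylates histone H3 at lysine 27. The EZH2 WT line expressed the wild-type enzyme, EZH2 Y641F and EZH2 A677G expressed gain-of-function (GOF) point mutants, and EZH2 H689A/F667I expressed a loss-of-function (LOF) double mutant. The lines were selected with blasticidin and taken to monoclonal populations, so a mutation and the line that carries it cannot be told apart, and a line with an empty vector was not analysed here. Below, the lines are called WT, Y641F, A677G and H689A/F667I.

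Mitochondrial ribosomes translate the messengers of mitochondrial DNA, which code for core subunits of the respiratory chain and of the ATP synthase. The small subunit binds the messenger and decodes it, and the large subunit joins amino acids and passes the new chain towards the inner membrane. Some of their proteins descend from bacterial ribosomal proteins, and others are found in mitochondria alone. Assembly needs the protein genes in the nucleus and the ribosomal RNAs of mitochondrial DNA to be expressed side by side.

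Symbols do not always match a place in the ribosome. MRPS30 and MRPS18A carry small subunit names but sit in the large subunit, MRPS18B and MRPS18C sit in the small one, and MRPS36 is now assigned to the α-ketoglutarate dehydrogenase complex. The comparisons use the symbols, and the place in the ribosome is given beside them where it matters. MRPS24 was not analysed here, and MRPL58 stands in the table under its older symbol, ICT1, outside the rule.

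The promoters of the genes held letters that many of them share. A window from 250 bases before to 50 bases after the start site, taken from RefSeq on GRCh38.p14, was found for 67 of the 76 genes and for 10624 of the protein-coding genes in the table. The core of the ETS factor motif, CCGGAAG, to which GABPA binds, was in 28 of the 67 windows, or 41.8%, against 18.8% of all windows. The core of the YY1 motif, ATGGCGG, was in 22 windows, or 32.8%, against 10.2%. One or both were in 65.7% of the genes' windows and in 26.4% of all. The shares of the other motifs lay closer together in percentage points. CGCATGCG, the core of the NRF1 motif, was in 4.48% against 3.84%, the E-box CACGTG in 10.4% against 10.2%, and the TATA box TATAAA in 2.99% against 5.57%. Both strands were read, a palindrome was counted once, and no ETS match overlapped a YY1 match in these windows. Matches are letters only and say nothing of binding.

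Windows are printed for genes described below, with ETS, YY1 and TATA matches in capitals on either strand. MRPS18B, MRPL32, MRPS15 and MRPL38 changed in one of the comparisons, and MRPS34 has the highest level per length and 3 ETS matches.
MRPS18B: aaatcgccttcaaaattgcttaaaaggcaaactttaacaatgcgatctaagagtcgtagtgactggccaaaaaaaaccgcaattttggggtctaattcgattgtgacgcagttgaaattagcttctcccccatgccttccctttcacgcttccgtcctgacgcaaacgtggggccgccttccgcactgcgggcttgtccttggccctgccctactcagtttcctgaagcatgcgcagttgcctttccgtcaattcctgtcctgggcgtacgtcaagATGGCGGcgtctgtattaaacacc
MRPL32: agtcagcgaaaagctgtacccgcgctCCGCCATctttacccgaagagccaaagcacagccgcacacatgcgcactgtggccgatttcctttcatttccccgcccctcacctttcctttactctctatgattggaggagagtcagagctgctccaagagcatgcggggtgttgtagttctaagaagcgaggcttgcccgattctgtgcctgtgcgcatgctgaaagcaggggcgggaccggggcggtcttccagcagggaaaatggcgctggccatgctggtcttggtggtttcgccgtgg
MRPS15: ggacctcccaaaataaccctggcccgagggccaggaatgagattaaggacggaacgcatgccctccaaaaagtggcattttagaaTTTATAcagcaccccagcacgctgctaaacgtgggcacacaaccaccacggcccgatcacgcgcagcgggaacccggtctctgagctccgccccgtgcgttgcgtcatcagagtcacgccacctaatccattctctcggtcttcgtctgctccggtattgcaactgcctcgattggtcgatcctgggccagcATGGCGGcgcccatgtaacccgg
MRPL38: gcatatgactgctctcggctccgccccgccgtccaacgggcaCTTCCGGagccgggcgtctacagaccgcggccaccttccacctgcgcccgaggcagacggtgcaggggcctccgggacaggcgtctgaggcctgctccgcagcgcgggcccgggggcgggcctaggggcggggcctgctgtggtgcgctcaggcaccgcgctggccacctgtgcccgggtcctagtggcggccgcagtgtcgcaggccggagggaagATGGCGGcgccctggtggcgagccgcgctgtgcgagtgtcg
MRPS34: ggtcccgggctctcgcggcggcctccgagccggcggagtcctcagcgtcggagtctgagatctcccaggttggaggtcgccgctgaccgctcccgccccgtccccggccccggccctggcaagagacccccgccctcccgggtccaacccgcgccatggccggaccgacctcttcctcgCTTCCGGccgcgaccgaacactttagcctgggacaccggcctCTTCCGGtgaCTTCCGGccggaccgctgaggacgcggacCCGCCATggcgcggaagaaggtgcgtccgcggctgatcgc
They lie at chr6:30617590-30617889 (plus strand), chr7:42932126-42932425 (plus), chr1:36464335-36464634 (minus), chr17:75904835-75905134 (minus) and chr16:1773085-1773384 (minus), and each reads 5′ to 3′ in the direction of its gene. In MRPS18B, MRPS15 and MRPL38 the capitals near the end are ATGGCGG, which starts after the transcription start site. In MRPL32 and MRPS34 the YY1 letters are on the other strand, as CCGCCAT. Among the genes' 23 YY1 matches, 82.6% began within 50 bases of the start site, against 68% of those in all windows, and for the 37 ETS matches the share was 70.3% against 54%.

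These letters were also counted by subunit, with no test of the difference. ETS was in 39% of the 41 large subunit windows and 46.2% of the 26 small subunit windows, and YY1 in 31.7% and 34.6%. The promoters were less rich in G and C than the rest, with a median of 60.3% over the genes and 65.7% over all windows.

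**Figure D1:**
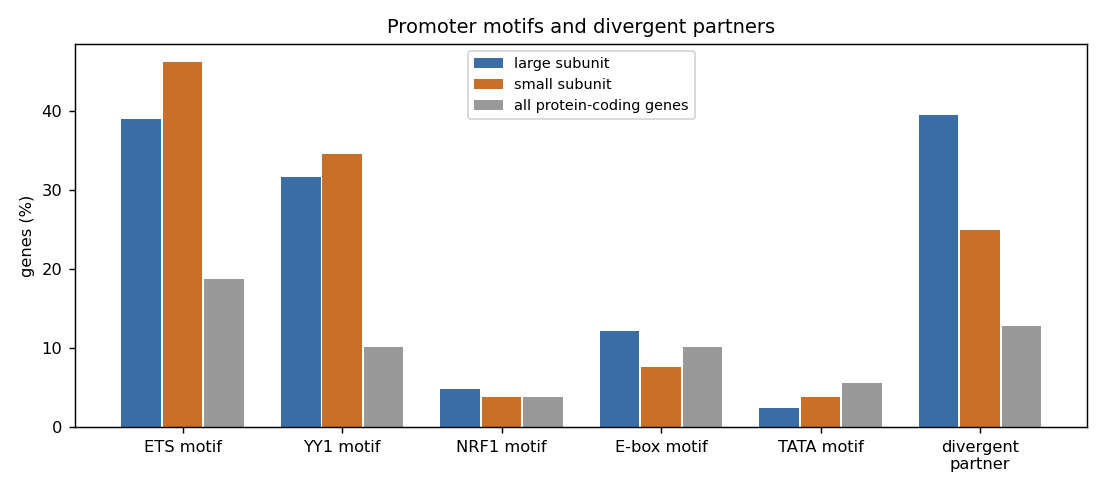
Share of genes (%, vertical axis) whose promoter window holds each motif, and share with a divergent partner, for the large subunit, the small subunit and all protein-coding genes of the table. ETS and YY1 motifs and divergent partners stand at a higher share in both subunits than in all genes. The NRF1 and E-box bars are closer to those of all genes. The TATA bars, of 1 gene in each subunit, are lower.

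Many of the genes start next to another gene on the opposite strand. With a limit of 1000 bases between the starts, 26 of the 76, or 34.2%, had such a divergent partner in the annotation, against 12.8% of the 13017 protein-coding genes in the table. The share was 39.6% in the large subunit (19 genes) and 25% in the small subunit (7 genes). MRPL46 and MRPS11, a large and a small subunit gene, start 320 bases apart and are each other's partner. MRPS12 starts 181 bases from SARS2, the mitochondrial seryl-tRNA synthetase, and MRPL43 starts 46 bases from TWNK, the mitochondrial DNA helicase.

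EZH2 RNA was above WT in each mutant line, in counts that include the cells' own gene, by 0.46 (SE 0.040), 0.13 (SE 0.040) and 0.40 (SE 0.040) on the log2 scale in Y641F, A677G and H689A/F667I. The WT libraries held 157, 163 and 154 CPM, counts scaled to a common library total, Y641F 228, 209 and 217, A677G 174, 165 and 182, and H689A/F667I 208, 210 and 206. The mutant and WT libraries did not overlap. Depth was even, at 32137700 to 44562413 counts per library, and the 76 genes took 0.53% to 0.554% of them. Among the kidney development genes, PAX2 was at 0 to 0.608 CPM and LHX1 at 2.87 to 5.19, and VIM, a mesenchymal filament gene, was at 244 to 272.

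All 76 genes were expressed in every library, at 472 to 11883 counts, and all were tested. Levels per kilobase of the canonical transcript ranged from 11.4 to 160 CPM per kilobase. The highest were MRPS34 at 160, MRPL3 at 158, MRPL51 at 139, MRPL41 at 130 and MRPL12 at 121, means over the 12 libraries. MRPL12 is the stalk protein that recruits translation factors, and MRPL3 is a core protein of the large subunit. In WT, MRPS34 stood at 161 ± 9.7 and MRPL3 at 161 ± 2.5 CPM per kilobase (SD, n = 3), a difference inside the spread, and MRPL41 at 134 ± 9.5 could not be told from MRPL51 at 136 ± 4.2. The lowest were MRPL42 at 11.4, MRPS33 at 11.9, MRPS18C at 12.1, MRPS23 at 12.4 and MRPL50 at 13.3. The median was 53.2 CPM per kilobase in the large and 37.3 in the small subunit. Per kilobase of coding sequence the medians were 106.4 and 99.07, and without a length they were 56.15 and 67.88 CPM. Which subunit stands higher thus rests on the measure. The order of the genes also rests on the length used. MRPL42 has a canonical transcript of 15557 bases, and per kilobase of coding sequence it was the highest of the 76 at 416 (rank 1 in place of 76). By coding length, 59 of the 76 lay within 2-fold of their median of 102 CPM per kilobase, either way. The Spearman correlation of both orders was 0.398 across the genes, which are not independent.

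The lines were compared by edgeR's quasi-likelihood test over all 14263 genes tested, with Benjamini-Hochberg adjusted p under 0.05 as the threshold. Members of the ribosome moved little in any comparison. The first question was whether a mutant EZH2 shifted the genes against WT. In Y641F, 1 of the 76 (1.32%) was lower and 0 were higher, against 5.59% lower and 2.09% higher of all genes. At an unadjusted p under 0.05, 7 (9.21%) were lower and 0 higher, against 11.4% and 7.85%. In A677G, 1 (1.32%) was lower and 0 higher, against 6.48% and 2.07%. At the unadjusted threshold 4 (5.26%) were lower and 1 (1.32%) higher, against 12.3% and 8.13%. In H689A/F667I, 0 were lower and 0 higher by edgeR, against 0.161% and 0.14%. Unadjusted, 1 (1.32%) was lower and 2 (2.63%) were higher there, against 4.1% and 4.2%. DESeq2 called 0 members in H689A/F667I against WT as well.

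The precision allowed narrow bounds. The 95% intervals of the log2 fold change lay within 0.25 of 0 for 73 of the 76 genes in Y641F, for 75 in A677G and for 75 in H689A/F667I, and all 76 lay within 0.5 in each of them. Over all genes tested, 53.6%, 52.9% and 57.8% had an interval within 0.25. The exceptions at 0.25 were MRPL21, MRPL36 and MRPS18C in Y641F, MRPL50 in A677G and MRPL38 in H689A/F667I. The coefficient of variation over the 12 libraries had a median of 4.41% for the 76 genes and 6.80% for all genes, which are on the whole at lower levels: the median was 58.4 CPM for the 76 and 24.5 CPM for all.

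**Figure D2:**
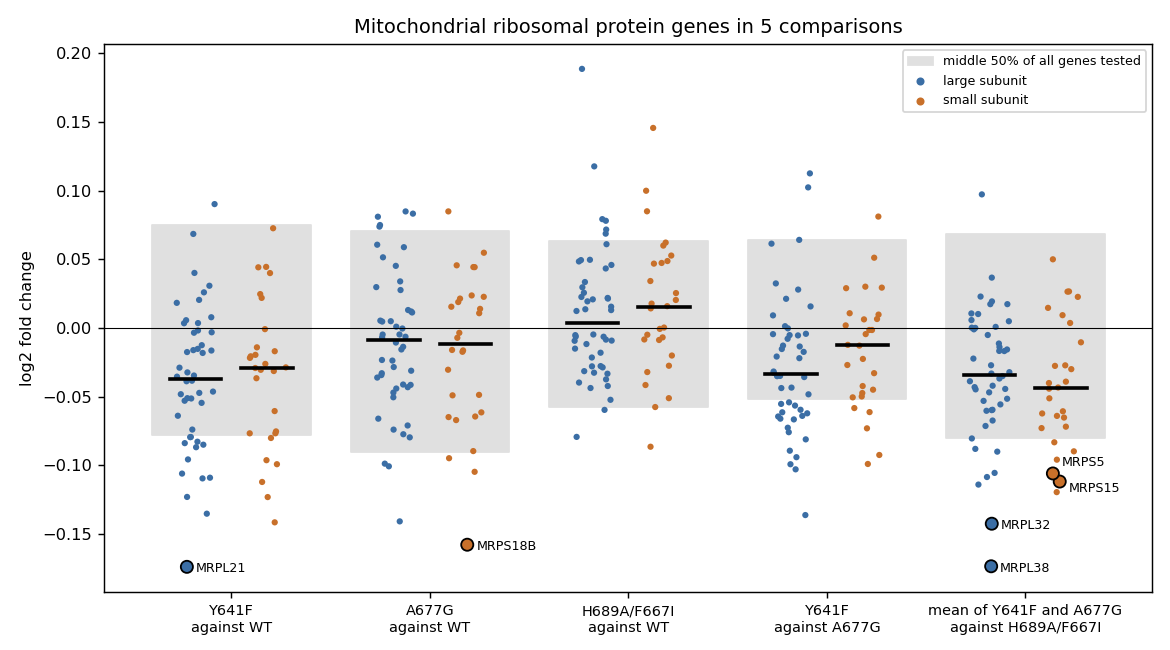
Log2 fold change (vertical axis) of each large (blue) and small (orange) subunit gene in 5 comparisons, with black lines at the subunit medians, grey bands over the middle 50% of all genes tested and outlined, named points for genes with adjusted p under 0.05. Most points lie inside or just below the grey bands, and the 6 named genes are all lower.

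MRPL21, a large subunit protein with a bacterial homologue, was the gene that passed in Y641F. It lies on chromosome 11 (chr11:68891276-68903835, minus strand, GRCh38). Its levels were 62.7, 65.9 and 61.2 CPM in WT and 54.3, 62.9 and 51.4 in Y641F. Replicate 2 of Y641F was inside the WT range, and the other replicates were below it. The log2 fold change was −0.17 (SE 0.055), or −11.4%, with an adjusted p of 0.0441 in edgeR. In A677G it was −0.071, with an adjusted p of 0.526. The call was lost without WT replicate 1 or 2, Y641F replicate 1 or 3, any A677G replicate or H689A/F667I replicate 2, at adjusted p from 0.0531 to 0.29, and the lowest effect, −0.11, was without Y641F replicate 3. Over the other alternatives the adjusted p ran from 0.0244 to 0.0923, and the call was lost with DESeq2 (0.0532) and with only the compared lines (0.0923). IGHMBP2, which starts 59 bases from MRPL21 on the other strand, had a log2 fold change of −0.0081 (95% interval −0.16 to 0.14).

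MRPS18B, one of a family of 3 S18 paralogues, was the gene that passed in A677G. It lies at chr6:30617840-30626395 on the plus strand. The WT libraries were at 81.7, 80.9 and 77.7 CPM and the A677G libraries at 74.0, 71.4 and 70.0. All A677G values were below all WT values. The log2 fold change was −0.16 (SE 0.045), or −10.4%, with an adjusted p of 0.0193 in edgeR. The adjusted p was 0.0915 and 0.0789 without WT replicate 1 and 2, and 0.0718 and 0.0961 without A677G replicate 2 and 3, so each of these ended the call, which held under the other alternatives (0.00602 to 0.0262). PPP1R10, which starts 597 bases away on the other strand, was at −0.011 (95% interval −0.11 to 0.086).

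The other S18 paralogues did not pass in any comparison. MRPS18A was at 0.055 (SE 0.052) in A677G on the log2 scale, and MRPS18C at −0.049 (SE 0.082). In Y641F, MRPS18B was at −0.077 and MRPS18C at −0.099, with adjusted p of 0.369 and 0.569. The difference between Y641F and A677G for MRPS18B was 0.081 (95% interval −0.0094 to 0.17), which did not pass either.

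MRPS26 had the lowest p in H689A/F667I and was chosen for that. It is a mitochondria-specific protein of the small subunit. Its levels were 95.6, 90.9 and 89.7 CPM in WT and 101.5, 101.7 and 102.3 in H689A/F667I, with all of the latter above all of the former. The log2 fold change was 0.15 (SE 0.041), with an unadjusted p of 0.00116 in edgeR and an adjusted p of 0.167. With each library's trend against GC content removed, the log2 fold change was 0.17 and the adjusted p was 0.033. MRPL38, of the central protuberance, was at 0.19 with an adjusted p of 0.392, and MRPS21 at −0.086 with 0.585.

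Y641F and A677G were compared directly to see whether the GOF mutants differ. No member passed in edgeR, 0 lower and 0 higher, against 0.014% and 0.0701% of all genes, and DESeq2 called 0 as well. Unadjusted, 1 member (1.32%) was lower and 0 were higher, against 3.21% and 3.69%. That gene was MRPL37, at 175.6, 177.4 and 173.1 CPM in WT, 160.4, 167.7 and 164.3 in Y641F, and 173.8, 171.6 and 178.4 in A677G. Its log2 difference between the GOF lines was −0.089 (SE 0.036), with an adjusted p of 0.633. The next lowest p-values belonged to MRPS2, at −0.092, and MRPL38, at −0.14. All but MRPL38 had an interval within 0.25 log2 units, or 75 of 76 genes.

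The mean of the GOF lines against H689A/F667I sets more against less active enzyme. Here 4 of the 76, or 5.26%, were lower and 0 were higher, against 8.75% and 3.81% of all genes. At an unadjusted p under 0.05, 13 (17.1%) were lower and 1 (1.32%) was higher, against 13.9% and 9.91% of all genes. The lower share was thus above that of all genes at this threshold, and the difference was not tested. The 4 were MRPL32, MRPL38, MRPS15 and MRPS5. They came from both subunits, and each was lower by no more than 11.3%.

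MRPL32, a large subunit protein that is matured by a mitochondrial protease before it joins the ribosome, lies at chr7:42932376-42948958. It was at 51.4, 55.6 and 51.9 CPM in Y641F, at 52.7, 51.6 and 52.8 in A677G and at 59.99, 59.57 and 54.58 in H689A/F667I. Replicate 2 of Y641F exceeded the lowest LOF replicate, and the other GOF libraries were below all of them. The log2 difference was −0.14 (SE 0.042), with an adjusted p of 0.0201 in edgeR. The call was lost without H689A/F667I replicate 1, at an adjusted p of 0.162, or replicate 2, at 0.142, and it held under every other alternative run (0.00766 to 0.0323).

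MRPL38 stands in the central protuberance of the large subunit (chr17:75898644-75905093, minus strand). It was at 26.7, 30.1 and 25.6 CPM in Y641F, at 27.3, 29.5 and 33.9 in A677G and at 32.2, 31.7 and 33.6 in H689A/F667I. The A677G libraries spread widely, and replicate 3 was the highest of the 9. Against WT its log2 fold change was −0.053 in Y641F, 0.083 in A677G and 0.19 in H689A/F667I, and none of these passed. The log2 difference of the GOF mean from H689A/F667I was −0.17 (SE 0.060), with an adjusted p of 0.0497 in edgeR. It was lost on leaving out any library except Y641F replicate 2 and A677G replicate 3, at adjusted p from 0.0526 to 0.209, and with DESeq2 (0.0612), library totals alone (0.0684), only the compared lines (0.0631) and thinned counts (0.0553).

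MRPS15, which binds the rRNA of the small subunit (chr1:36455718-36464384, minus strand), was at 75.3, 78.8 and 73.1 CPM in Y641F, at 80.1, 75.8 and 80.7 in A677G and at 82.9, 82.6 and 85.0 in H689A/F667I. All GOF libraries were below all LOF libraries. The log2 difference was −0.11 (SE 0.037), with an adjusted p of 0.0388. The call held without WT replicate 3, Y641F replicate 1 or 2, or A677G replicate 3, and was lost without any of the other 8 libraries, at adjusted p from 0.0503 to 0.174, and with library totals alone (0.0661) and only the compared lines (0.0544).

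MRPS5, near the messenger channel of the small subunit (chr2:95085369-95122006, minus strand), was at 74.96, 76.77 and 73.7 CPM in Y641F, at 74.2, 73.2 and 73.4 in A677G and at 81.9, 77.0 and 81.2 in H689A/F667I. All GOF libraries were below all LOF libraries, with Y641F replicate 2 and H689A/F667I replicate 2 the closest. The log2 difference was −0.11 (SE 0.036), with an adjusted p of 0.0495. It was lost without any library except Y641F replicate 1 or 2 or H689A/F667I replicate 2, at adjusted p from 0.0512 to 0.25, and in 5 of the 11 other alternatives (0.0557 to 0.0821).

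**Figure D3:**
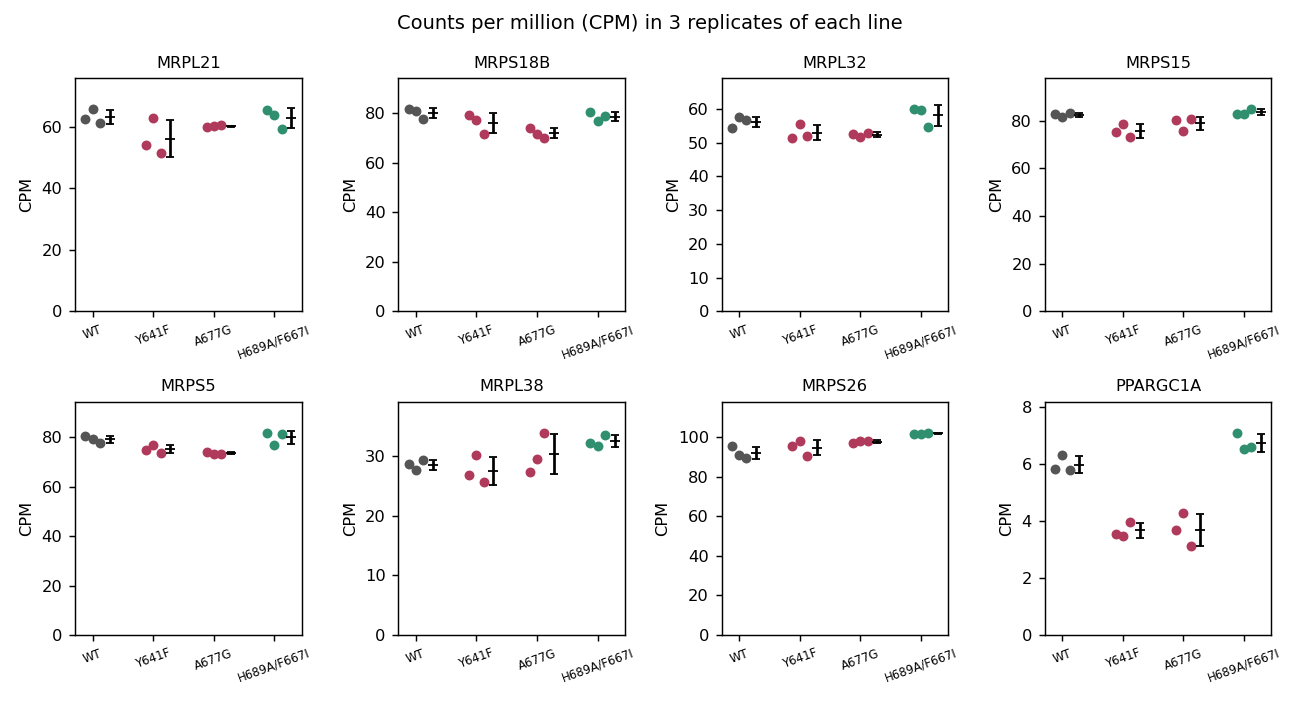
CPM (vertical axes, from 0) of 7 ribosomal protein genes and PPARGC1A in the 3 replicates of each line, with bars at mean ± SD (n = 3). Fitted changes of the 6 called ribosomal protein genes, each in the comparison where it passed, run from −11.4% to −7.08%. The comparison is Y641F against WT for MRPL21 and A677G against WT for MRPS18B. For MRPL32, MRPL38, MRPS15 and MRPS5 it is the GOF mean against H689A/F667I, and none of these passed against WT. PPARGC1A is at 3.1 to 4.3 CPM in the GOF lines and at 5.8 to 7.1 in the others.

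The genes of 1 structural region did not move as a block. The central protuberance, a crown on the side that faces the small subunit, was followed in 6 genes (MRPL18, MRPL27, MRPL38, MRPL40, MRPL46, MRPL48). In the GOF mean against H689A/F667I they ranged from −0.17 for MRPL38, which passed, to 0.097 for MRPL40, with a median of −0.050 on the log2 scale. The 6 genes around the exit of the new chain (MRPL17, MRPL22, MRPL23, MRPL24, MRPL45, MRPL47) ranged from −0.11 for MRPL17 to 0.017 for MRPL22, and none of them passed in edgeR. The stalk genes MRPL10, MRPL11 and MRPL12 lay between −0.033 and 0.019, with 95% intervals inside −0.13 and 0.10. MRPL12 alone was at 135.4, 128.8 and 115.9 CPM in WT and at 129.9, 103.9 and 129.6 in A677G, and the replicates of both lines overlapped.

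The 2 subunits were set side by side, with no test of their difference. The median log2 fold change of the large and small subunit genes was −0.037 and −0.029 in Y641F, −0.0087 and −0.012 in A677G, and 0.0038 and 0.015 in H689A/F667I, against 0.0025, 0.0045 and 0.0024 for all genes tested. Between Y641F and A677G the medians were −0.034 and −0.013, and for the GOF mean against H689A/F667I they were −0.034 and −0.044. With MRPS30 and MRPS18A moved to the large subunit and MRPS36 left out, the small subunit median in A677G was −0.016 and the one for the GOF mean against H689A/F667I −0.044. MRPS30 was at −0.077 (SE 0.046) and MRPS36 at 0.073 (SE 0.066) in Y641F.

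The genes were also divided by whether they have a bacterial homologue, and the difference between the classes was not tested. Subunits follow the symbols, so the small subunit genes without a homologue include MRPS30, MRPS18A and MRPS36. MRPS18A and MRPS18B were counted as without a homologue and their paralogue MRPS18C as with it. In Y641F, the median log2 fold change was −0.041 for the 30 large subunit genes with a bacterial homologue and −0.035 for the 18 without. In the small subunit it was −0.029 for 15 and −0.029 for 13 genes. In A677G the medians were −0.015 with and 0.00010 without a homologue in the large subunit, and −0.017 and 0.011 in the small subunit. In H689A/F667I they were 0.015 and −0.0063 in the large, and 0.00034 and 0.020 in the small subunit. For the GOF mean against H689A/F667I they were −0.036 and −0.024 in the large, and −0.061 and −0.039 in the small subunit. Genes within a set share libraries and are not independent.

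The libraries of Y641F did not place the 76 genes alike. In the fit, 59 of the 76 genes had a log2 fold change below 0 against WT, 77.6%, where 49% of all genes did. The share was 73.7% in Y641F against A677G, where 50% of all genes were below 0. It was also 73.7% in the GOF mean against H689A/F667I, against 48.4% of all genes. Against WT it was 59.2% in A677G and 47.4% in H689A/F667I, where 48.3% and 48.8% of all genes were below 0. By library, 64 of the 76 were below their own mean over the 12 libraries in Y641F replicate 1 and 64 in replicate 3, but 18 in replicate 2. The median deviation of the 76 genes was −0.065, 0.034 and −0.051 log2 units in replicates 1, 2 and 3. Without replicate 2 the medians were −0.076 for the large and −0.068 for the small subunit and 4 genes were lower (MRPL21, MRPL41, MRPL9, MRPS15). Without replicate 1 or 3 they were closer to 0, and no gene passed in edgeR. The 3 Y641F replicates differed more from each other than those of any other line, with a chi-square per gene of 10.4 to 14.9 against 3.33 to 7.13, and the part of this in the shift of the 76 genes was not tested. H689A/F667I replicate 1 stood at the other end, with a median deviation of 0.054 and 11 of the 76 genes below their mean. Without it, 0 of the 4 genes named above passed in the GOF mean against H689A/F667I in edgeR.

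**Figure D4:**
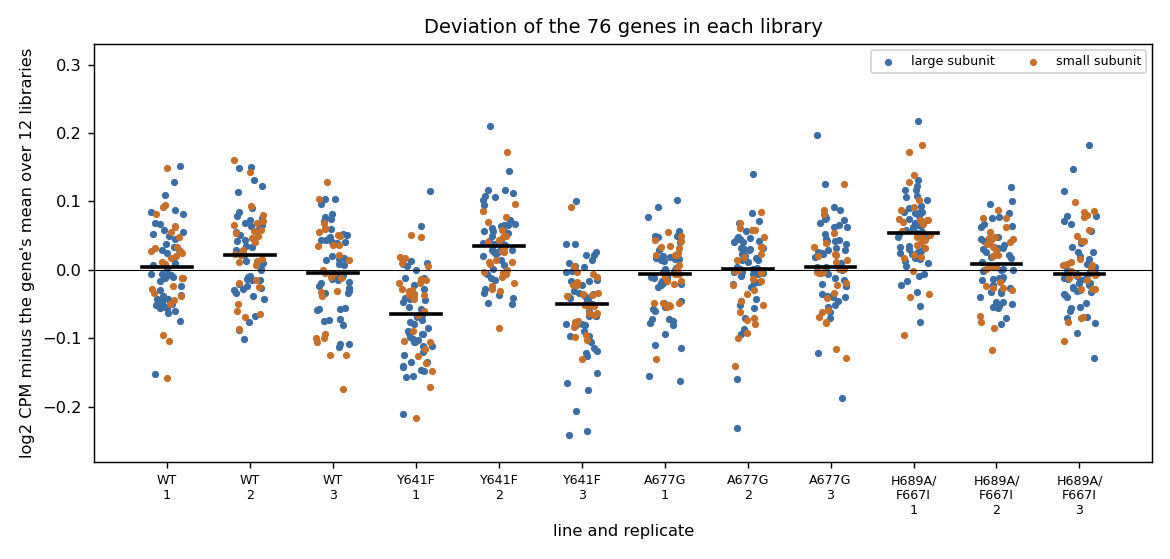
Deviation of each of the 76 genes (log2 CPM minus the gene's mean over 12 libraries, vertical axis) in each library, with the median as a black line. Medians are at −0.065 and −0.051 in Y641F replicates 1 and 3, and at 0.034 and 0.054 in Y641F replicate 2 and H689A/F667I replicate 1.

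Summed over genes, the large subunit took 3473, 3512 and 3471 CPM in WT, 3285, 3536 and 3340 in Y641F, 3439, 3455 and 3479 in A677G, and 3570, 3479 and 3440 in H689A/F667I. The small subunit took 1983, 1991 and 1946 CPM, then 1901, 1988 and 1890, then 1959, 1946 and 1946, and then 2040, 1987 and 1974, in the same order of lines. Y641F spanned the widest range for both, and included the WT mean for both. The ratio of small to large was 0.566 ± 0.0052 in WT, 0.569 ± 0.0086 in Y641F, 0.564 ± 0.0053 in A677G and 0.572 ± 0.0015 in H689A/F667I (SD, n = 3). The first 3 lines overlapped, and the H689A/F667I replicates, at 0.5712 to 0.5738, lay inside the Y641F range of 0.5623 to 0.5786. The lowest H689A/F667I replicate was just above the highest WT replicate, at 0.5708. The WT and H689A/F667I replicates overlapped by geometric means and per kilobase, and did not overlap by place in the ribosome. No p is given for these sums. An RNA ratio under 1 is set by the number of genes and their lengths as well as by their levels, and it says nothing of the amount of each subunit.

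**Figure D5:**
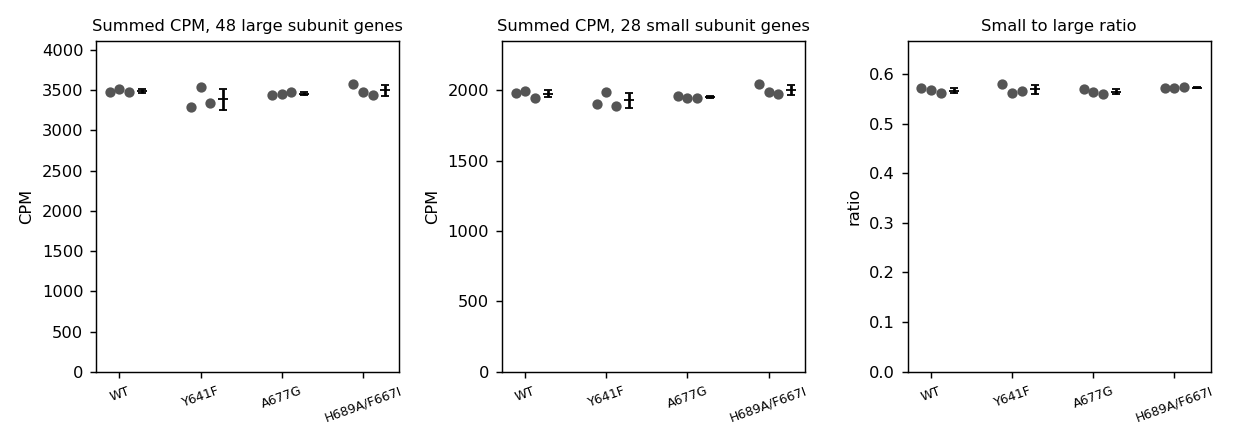
Summed CPM of the 48 large and 28 small subunit genes and the ratio of small to large (vertical axes, from 0) in the 3 replicates of each line, with bars at mean ± SD (n = 3). The ratio lies between 0.559 and 0.579 in all 12 libraries.

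The levels of the 76 genes were also correlated between lines. Pearson's r of mean log2 CPM across the 76 genes lay between 0.9975 and 0.998 for the 6 pairs of lines, which is a description across genes that are not independent.

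Other genes of mitochondrial translation were followed in lists. Of 7 subunits of the ribosome without an MRP symbol, among them DAP3, PTCD3 and ICT1, of 27 assembly factors and of 15 translation factors, 0 passed in any of the 5 comparisons in edgeR. Of all genes, 5.59% were lower and 2.09% higher in Y641F, 6.48% and 2.07% in A677G, and 0.161% and 0.14% in H689A/F667I. Between Y641F and A677G the shares were 0.014% and 0.0701%, and in the GOF mean against H689A/F667I 8.75% and 3.81%. At an unadjusted p under 0.05, the 27 assembly factors had 1 lower in Y641F, 1 lower in A677G, and 3 lower and 1 higher in the GOF mean against H689A/F667I, against 11.4% of all genes lower in Y641F, 12.3% lower in A677G, and 13.9% lower and 9.91% higher in the GOF mean. The 20 aminoacyl-tRNA synthetase and amidotransferase genes had 1 that rose, GATB, at 0.23 (SE 0.064) in A677G with an adjusted p of 0.0151 in edgeR. There, 2.07% of all genes were higher. GATB codes for a subunit of the enzyme that makes glutaminyl-tRNA in mitochondria, and its levels were 26.3, 24.7 and 24.1 CPM in WT and 30.29, 27.99 and 30.08 in A677G. The call was lost without WT replicate 2 or 3 or A677G replicate 1 or 3, at adjusted p from 0.0678 to 0.0852. In the GOF mean against H689A/F667I, where 8.75% of all genes were lower, 1 of the 20 was lower. This was HARS2, the mitochondrial histidyl-tRNA synthetase, at −0.15 (SE 0.050), with an adjusted p of 0.0423 in edgeR. Its levels were 29.4, 30.4 and 29.0 CPM in Y641F, 30.5, 29.6 and 28.9 in A677G and 31.4, 34.3 and 32.9 in H689A/F667I. It was lost without WT replicate 1 or 2, Y641F replicate 3, A677G replicate 2 or 3, or H689A/F667I replicate 2 or 3, at 0.0505 to 0.271, and with library totals alone (0.0707), only the compared lines (0.0548) and thinned counts (0.0948). Of the 12 genes of mitochondrial DNA transcription and RNA processing, 1 was lower in that comparison, against 8.75% of all genes. This was PNPT1, an RNA exonuclease, at −0.11 (SE 0.035), with an adjusted p of 0.0254 in edgeR. It was lost without A677G replicate 1 or 3 or any H689A/F667I replicate, at 0.0539 to 0.161, and with library totals alone (0.0542). TFAM, which packs mitochondrial DNA and starts its transcription, was at −0.043 in Y641F and −0.028 in A677G, with adjusted p of 0.66 and 0.788. The RNAs encoded in mitochondrial DNA were not analysed here.

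Among the 9 regulators of nuclear genes for mitochondria, PPARGC1A moved most. It codes for PGC-1α, a coactivator that raises the transcription of nuclear genes for mitochondria together with NRF1, GABPA and ESRRA. Its levels were 5.85, 6.32 and 5.79 CPM in WT, 3.57, 3.49 and 3.97 in Y641F, 3.68, 4.28 and 3.13 in A677G, and 7.12, 6.52 and 6.61 in H689A/F667I. Every GOF library was below every WT and every H689A/F667I library. The log2 fold change was −0.70 (SE 0.14, adjusted p = 0.000582) in Y641F and −0.69 (SE 0.14, adjusted p = 0.000587) in A677G, and −0.87 (SE 0.12, adjusted p = 7.35e-07) for the GOF mean against H689A/F667I. Against WT these are changes of −38.53% and −38.15%, in lines where the large subunit genes had medians of −0.037 and −0.0087 on the log2 scale. GABPA was at 0.051 and 0.019, NRF1 at −0.0072 and 0.038 and YY1 at 0.0087 and 0.033 in Y641F and A677G, and none of them passed.

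A further 2 of the 9 were lower in A677G, where 6.48% of all genes were lower. In Y641F and in the GOF mean against H689A/F667I, PPARGC1A was the only 1 of the 9 to pass, against 5.59% and 8.75% of all genes lower. PPARGC1B, the relative of PPARGC1A, was at 50.7, 50.2 and 47.3 CPM in WT and 43.4, 42.2 and 42.1 in A677G, a log2 fold change of −0.22 (SE 0.055, adjusted p = 0.00779), lost at 0.0504 without WT replicate 1. MYC was at 121, 118 and 106 CPM in WT and 101, 101 and 101 in A677G, a log2 fold change of −0.19 (SE 0.048, adjusted p = 0.00691), lost at 0.0808 and 0.0564 without WT replicate 1 and 2. In Y641F, PPARGC1B was at −0.067 and MYC at −0.0051, and the difference between the GOF lines did not pass, with adjusted p of 0.568 and 0.156. In H689A/F667I against WT, PPARGC1B was at −0.14 (SE 0.055) and MYC at −0.16 (SE 0.048), with adjusted p of 0.428 and 0.198 in edgeR and unadjusted p of 0.0144 and 0.0017. Their levels there were 42.2, 44.7 and 47.6 CPM for PPARGC1B and 101, 102 and 106 CPM for MYC.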

How the data were processed

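RNA was sequenced from 12 libraries, 3 biological replicates of each of 4 HEK293T lines, from a stranded mRNA kit. Per the labels and the study's methods, the authors trimmed reads with Trim Galore 0.6.5, aligned them with STAR 2.7.9a to GRCh38, estimated transcripts with Salmon 1.2.0 and tested with edgeR 3.16. The authors deposited whole-number counts per gene symbol, not normalized; the step from transcript estimates to counts per symbol and the filter behind the 14438 genes are not given in the sources used here.

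The test was edgeR 4.0.16 in R 4.3.3 (TMM factors, quasi-likelihood fit of all 12 libraries, 1 coefficient per line), with Benjamini-Hochberg adjustment over 14263 genes. Left out were 175 genes at 0 in all replicates of a line, none of them a member. CPM values carry the TMM factors, with a prior count of 2 on the log2 scale. P-values set a difference between lines against the spread between replicates of a line, and do not cover the spread between independently made lines. Positions, lengths and divergent partners came from GENCODE on GRCh38 (13272 by name, 807 by synonym, 359 unmatched), and to RefSeq promoter windows, of which the one nearest to the gene's annotated start was used. Genes named were all members past the threshold, the 5 highest and 5 lowest per length, MRPS30, the MRPS18 paralogues, MRPS36 and MRPL12, the genes past the threshold in the lists, and the 3 lowest p-values where no member passed. The members, lists and structural groups were chosen with earlier results of these data known. Alternatives used DESeq2 1.42.0 and limma 3.58.1, other scalings, filters, a replicate block, thinned counts, a GC correction and each replicate left out.

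Replicate numbers are shared by the lines. Over 18 pairs of same-numbered libraries, the correlation of deviations from the line means ran from −0.056 to 0.050, so the numbers were not taken to pair the samples. A cell type marker that was measured is not reported here.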

Additional observations from a re-analysis of the deposited data

Results flagged for a closer look

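Genes were flagged where the GOF lines and the LOF line were set against each other directly, so that WT does not enter the difference. The WT libraries still entered the estimate of the spread. In the mean of Y641F and A677G against H689A/F667I, the log2 difference was −0.14 for MRPL32, −0.17 for MRPL38, −0.11 for MRPS15 and −0.11 for MRPS5, each with an adjusted p under 0.05 in edgeR (0.0201, 0.0497, 0.0388 and 0.0495). They are 4 of 76 genes, 5.26%, which is below the 8.75% of all genes that were lower in this comparison. With only the compared lines in the fit, MRPL32 alone passed in edgeR. Against WT none of the 4 passed in either GOF line or in H689A/F667I. In H689A/F667I against WT their log2 fold changes were 0.050, 0.19, 0.018 and 0.016 in the same order. With 4 to 10 samples needed for a check of single outlying values, lines of 3 were not checked for them.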

How the results depend on the processing

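The signs of the 17 gene-by-comparison values followed were kept under every alternative. The members called lower in Y641F against WT numbered 1 in the main analysis, 2 with DESeq2, edgeR's exact test or thinned counts, 5 with upper-quartile factors and 0 with only the compared lines, and 0 to 4 with 1 replicate left out. In A677G the count stayed at 1 in every setting but for 0 to 1 on leaving out a replicate. In H689A/F667I, 1 gene was higher with the GC trend removed, with or without a replicate block. For the GOF mean against H689A/F667I, 4 were lower in the main analysis, 1 with library totals alone or only the compared lines, 2 lower and 1 higher (MRPL40) with thinned counts, 5 with upper-quartile factors and 0 to 6 with a replicate left out. The exact test is pairwise and was not run for this mean. With the replicate block the count was 3, without MRPS5, and 1 in Y641F and in A677G; the replicate numbers mark no known pairing. MRPS2, uncalled in Y641F, passed with DESeq2, the exact test, upper-quartile factors and thinned counts, and without WT replicate 3.

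The large subunit median in Y641F against WT ran from −0.076 to −0.016 and the small from −0.068 to −0.018 with a replicate left out; between Y641F and A677G the large median ran from −0.069 to −0.013 and the small from −0.028 to −0.0022, and for the GOF mean against H689A/F667I from −0.046 to −0.013 and from −0.063 to −0.023. The A677G medians ran from −0.015 to 0.00089 and from −0.029 to 0.0060, and those of H689A/F667I from −0.014 to 0.018 and from 0.0079 to 0.025. For WT, Y641F, A677G and lastly H689A/F667I, the small to large ratio was 0.508, 0.510, 0.506 and 0.513 by place in the ribosome, 0.968, 0.971, 0.963 and 0.972 by geometric means, and 0.460, 0.462, 0.457 and 0.464 per kilobase, by construction of each.

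At 472 or more counts per gene and library, thinning to the smallest library ended the calls of MRPL38 and MRPS5 (adjusted p = 0.0553 and 0.0607, edgeR). Which of depth, the 3 replicates per line or the 1 line per mutation limits the calls was not tested.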
